A study of Mus musculus with 246 samples.

Results

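The genes described here are 10 transcripts, most of which mammalian cells adjust to heat, cold or misfolded protein. They were chosen by name out of 56691 genes in the count table, as a possible sign of temperature or handling. Earlier results of these data were known at that time. All 10 passed the filter on low counts in every region. 7 encode chaperones or co-chaperones: Hspa1a and Hspa1b (inducible Hsp70), Hspa8 (constitutive Hsp70), Hspa5 (the Hsp70 of the endoplasmic reticulum, also called BiP), Hsph1 (Hsp110), Dnajb1 (Hsp40) and Hspb1 (Hsp27). The other 3 are Cirbp and Rbm3, which encode cold-inducible RNA-binding proteins, and Rsrp1, which encodes an arginine- and serine-rich protein. Whether Rsrp1 responds to temperature was not tested here. RNA was sequenced from bilateral punches of 6 brain regions of 41 adult male CD1 mice. These were ventral hippocampus (vHipp), dorsomedial thalamus (DMT), basolateral amygdala (BLA) and nucleus accumbens (Nacc), and in the cortex the anterior cingulate (ACC) and the medial prefrontal (mPFC) area. CD1 is an outbred stock, so the mice also differ in genotype.

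The mice had 3 histories. Ctrl_Veh mice were raised with standard bedding by dams that received an empty gel (vehicle). ELA_Veh mice were raised in the first postnatal days with limited bedding and nesting material, an early life adversity (ELA), by dams given the same empty gel. ELA_SAFit2 mice had the same adversity, and their dams received a gel with SAFit2, an inhibitor of the Hsp90 co-chaperone FKBP51, which reached the pups through the milk; the design has no unstressed SAFit2 group. Of each history, 7 mice were killed without a social encounter (NoInteraction). A further 6 Ctrl_Veh, 7 ELA_Veh and 7 ELA_SAFit2 mice were killed after 10 min with an unfamiliar mouse (SocialInteraction). The sets are different animals, and no body or brain temperature was used here.

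When proteins unfold, Hsp70 and its partners bind them, and heat shock factor 1, released from chaperones, binds heat shock elements upstream of chaperone genes and raises their transcription. Unfolded protein in the endoplasmic reticulum acts through other sensors, which raise Hspa5 and its partners. Cirbp and Rbm3 move the other way with temperature: mild cooling raises their messenger RNA and warming lowers it, and in rodents both follow the daily rhythm of body temperature.

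RefSeq promoter windows (250 bases before to 50 after the transcription start, GRCm38.p6) were found for 8 of the 10 genes, while Hspa8 and Rbm3 had none in the table. The 250 bases before the start are shown for 6 genes whose windows hold a motif of their class. Hspa1a is at chr17:34972157-34972406, Hspa1b at chr17:34959239-34959488 and Hsph1 (the first of its 2 listed starts) at chr5:149636337-149636586, all on the minus strand. Hspb1 is at chr5:135887669-135887918, Hspa5 at chr2:34771840-34772089 and Cirbp at chr10:80167589-80167838, all on the plus strand. Each sequence is written 5′ to 3′ along its gene. Capitals mark 2-unit heat shock elements (GAANNTTC or TTCNNGAA) in Hspa1a, Hspa1b, Hspb1 and Hsph1, the endoplasmic reticulum stress response element (CCAAT, 9 other bases, CCACG) in Hspa5, and the mild-cold response element (TCCCCGCC, or its reverse complement) in Cirbp, Hspa1a and Hspa1b.
Hspa1a: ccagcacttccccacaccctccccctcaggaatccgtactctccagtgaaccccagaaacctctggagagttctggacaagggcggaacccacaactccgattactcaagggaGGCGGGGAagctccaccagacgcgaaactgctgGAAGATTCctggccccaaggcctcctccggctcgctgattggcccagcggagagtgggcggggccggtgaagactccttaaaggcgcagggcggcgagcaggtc
Hspa1b: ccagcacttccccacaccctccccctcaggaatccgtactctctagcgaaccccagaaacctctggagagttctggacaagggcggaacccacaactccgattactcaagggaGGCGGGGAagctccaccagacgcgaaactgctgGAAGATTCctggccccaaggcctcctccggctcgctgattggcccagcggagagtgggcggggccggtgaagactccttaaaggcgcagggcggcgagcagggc
Hspb1: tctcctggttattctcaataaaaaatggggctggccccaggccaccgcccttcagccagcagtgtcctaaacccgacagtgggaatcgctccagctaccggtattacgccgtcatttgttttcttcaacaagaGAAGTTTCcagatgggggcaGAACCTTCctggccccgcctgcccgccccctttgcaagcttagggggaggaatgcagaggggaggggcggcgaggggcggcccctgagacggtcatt
Hsph1: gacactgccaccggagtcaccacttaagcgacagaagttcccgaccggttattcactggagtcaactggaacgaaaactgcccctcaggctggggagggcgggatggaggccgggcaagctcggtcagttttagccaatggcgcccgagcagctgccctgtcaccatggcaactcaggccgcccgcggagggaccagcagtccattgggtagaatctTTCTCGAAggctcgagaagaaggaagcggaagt
Hspa5: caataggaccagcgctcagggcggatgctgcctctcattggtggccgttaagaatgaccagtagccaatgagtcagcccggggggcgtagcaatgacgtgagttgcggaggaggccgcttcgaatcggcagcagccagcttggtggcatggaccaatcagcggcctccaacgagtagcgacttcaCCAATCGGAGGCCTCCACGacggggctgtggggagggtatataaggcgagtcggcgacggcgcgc
Cirbp: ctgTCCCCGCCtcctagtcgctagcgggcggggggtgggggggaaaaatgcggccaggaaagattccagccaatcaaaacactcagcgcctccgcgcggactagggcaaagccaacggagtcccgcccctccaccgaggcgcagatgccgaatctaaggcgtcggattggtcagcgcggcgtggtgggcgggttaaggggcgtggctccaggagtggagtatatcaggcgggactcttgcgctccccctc
Both strands were searched. GAANNTTC was in 7.86% of all 32851 promoter windows and TTCNNGAA in 8.52%, and both overlap the 3-unit element (GAANNTTC continued by NNGAA), which was in 0.603% and, of the 10 genes, in Hsph1 alone (36 bases after its first start). The element in Hspa5 lay 65 bases before the start, and 0.119% of windows hold it. TCCCCGCC was in 5.38% of windows, in Cirbp 247 bases before the start and, on the other strand, in Hspa1a, Hspa1b and the second listed start of Dnajb1. A match describes letters in this window and says nothing of binding.

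Hspa1a and Hspa1b differed at 3 of these 250 bases (98.8% identity) and, in their longest open reading frames, at 8 of 1926 aligned bases (99.6%). Reads from one copy can therefore be assigned to the other, and the response of the pair in the DMT, the vHipp and the summed regions is also given with their counts added together.

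The libraries held 20804247 to 43351424 estimated counts (median 28844788), and library numbers of the 2 sets were interleaved within each region. The numbers ran in blocks by region, and almost all of the mPFC lay in a separate block of lower numbers. Differences between regions and between blocks of library numbers therefore cannot be told apart. In the Nacc, 12 of 41 libraries carried the individual-specific expression of another mouse than the labelled one, and 8 of these matched a mouse of the other set; no such library was found in the other 5 regions. The groups were kept as labelled, and the response in the Nacc is given with all 41 libraries and with the remaining 29. Other Nacc values are from all 41 unless stated. Marker genes followed the punch labels in part: summed thalamus markers had a median of 2070 CPM (counts scaled to a common library total) in the DMT against at most 99.4 elsewhere, and accumbens markers 1730 in the Nacc against at most 721. The ranges of the accumbens markers overlapped, however, between Nacc (607 to 2420) and BLA (279 to 1810). The amygdala markers of BLA (423 to 1180) and vHipp (528 to 838) overlapped, as did the hippocampus markers of Nacc (461 to 1020) and vHipp (781 to 1140).

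The first comparison asked whether the 10 genes differed between SocialInteraction and NoInteraction mice, averaged over the 3 histories. All 7 chaperone genes were fitted higher in the SocialInteraction mice and Cirbp, Rbm3 and Rsrp1 lower, in each of the 6 regions (42 of 42 and 18 of 18 estimates). The regions share the mice and several of the genes are correlated, so counts of estimates over genes and regions are not counts of independent results. With the counts of the 6 regions of a mouse summed, 6 of the 10 genes passed the test (adjusted p under 0.05), against 8.55% of all 17382 genes tested. Hspb1, Hspa5, Hsph1 and Hspa8 were higher (4.71% of genes were called higher) and Cirbp and Rsrp1 were lower (3.84% were called lower). With the Nacc left out of the sum, 9 of the 10 passed, against 10.7% of genes, all but Hspa1b (adjusted p = 0.0642). In bulk tissue, fewer cells of a type and less RNA per cell cannot be told apart.

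**Figure D1:**
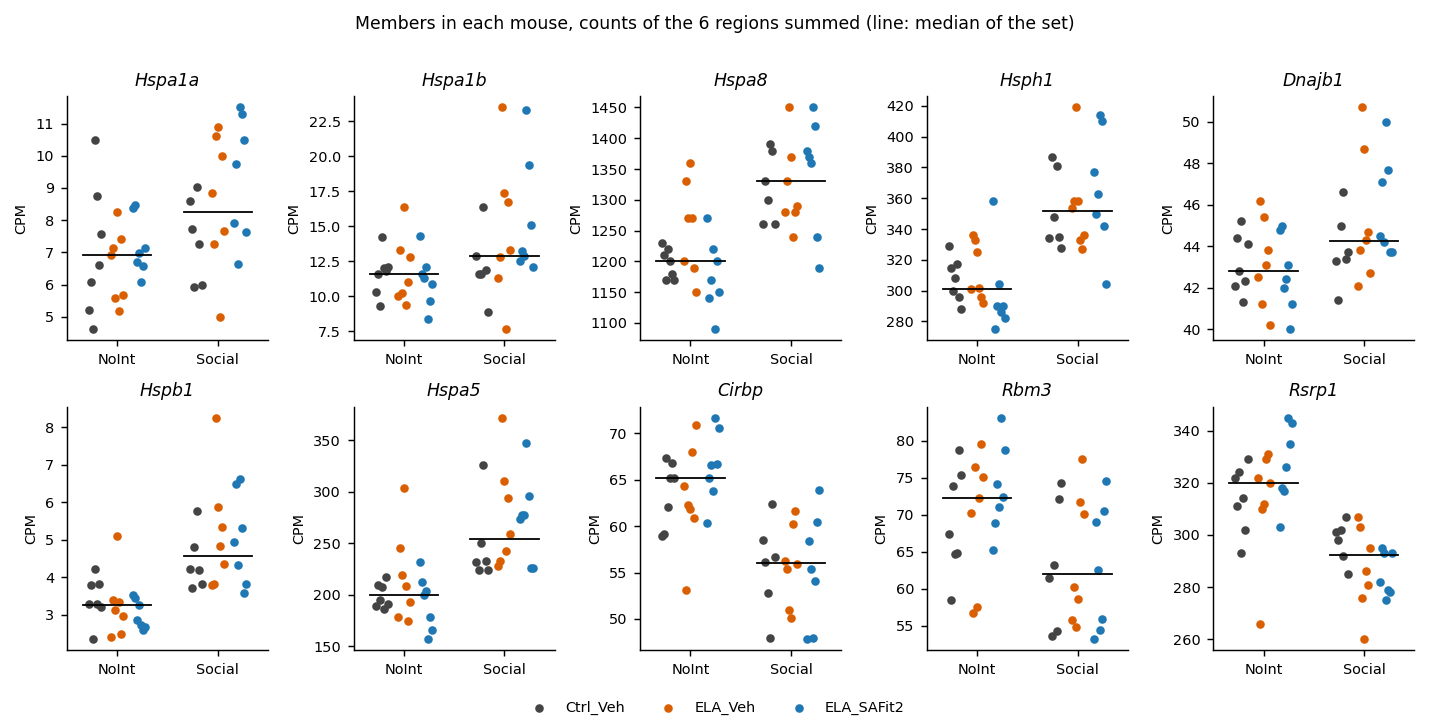
Each point is 1 mouse; the y axis is CPM from the summed counts of its 6 regions, the x axis the set, and colours give the history (black line: median of the set, 21 NoInteraction and 20 SocialInteraction mice; y axes do not start at 0). Every SocialInteraction mouse lay above the NoInteraction median for Hsph1, Hspa5 and Hspb1 and below it for Cirbp and Rsrp1.

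Hspb1, a small heat shock protein that holds unfolded clients, had the largest difference on this scale. Its summed level ran from 2.35 to 5.09 CPM (median 3.26) in NoInteraction mice and from 3.59 to 8.25 CPM (median 4.58) in SocialInteraction mice. The ranges overlapped, with 7 of 20 SocialInteraction mice above every NoInteraction mouse and all 20 above the NoInteraction median. Mice 57, 59, 61 and 63, which have neighbouring numbers, were among these 7. The difference was 0.59 ± 0.10 (SE) on the log2 scale, or 1.51-fold (adjusted p = 0.000145). This gene was low, at 32 to 482 counts in single libraries, and its coefficient of variation within a region was 32.0% to 44.5%.

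Hspa5, the main luminal chaperone of the endoplasmic reticulum, ran from 157 to 304 CPM (median 200) without and from 224 to 372 CPM (median 254) with the encounter. All 20 SocialInteraction mice were above the NoInteraction median, 4 of them above its highest mouse. These 4 were mice 57, 59, 61 and 63 (326, 372, 311 and 347 CPM), whose neighbouring numbers form 1 run, so they may not be independent. The difference was 0.39 ± 0.07 (1.31-fold, adjusted p = 0.00024). By region it passed in the mPFC (0.50), ACC (0.48), BLA (0.34), DMT (0.42) and vHipp (0.40), with adjusted p between 1.88e-05 and 0.0111.

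Hsph1 serves Hsp70 as a nucleotide exchange factor. It ran from 275 to 358 CPM (median 301) in NoInteraction and from 304 to 419 CPM (median 352) in SocialInteraction mice, and 7 of the 20 exceeded every NoInteraction mouse. The difference was 0.23 ± 0.03 (1.17-fold, adjusted p = 6.68e-05), the smallest adjusted p among the 10 genes. In the mPFC, 17 of 20 SocialInteraction mice were above the highest NoInteraction mouse (256 to 356 CPM against 297 to 458 CPM, log2 difference 0.32 ± 0.04, adjusted p = 7.45e-06).

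Hspa8, the housekeeping Hsp70 of the cytosol and the most abundant of the 10, ran from 1090 to 1360 CPM (median 1200) and from 1190 to 1450 CPM (median 1330). Its difference was small, 0.14 ± 0.02 (1.10-fold, adjusted p = 0.000207), with 19 of 20 SocialInteraction mice above the NoInteraction median. Dnajb1, which delivers clients to Hsp70, ran from 40.0 to 46.2 CPM (median 42.8) and from 41.4 to 50.7 CPM (median 44.2), a difference of 0.07 ± 0.02 (adjusted p = 0.0514). Over the 5 regions without the Nacc it was 0.08 (adjusted p = 0.0403).

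Cirbp ran from 53.1 to 71.7 CPM (median 65.2) in NoInteraction and from 47.8 to 63.9 CPM (median 56.0) in SocialInteraction mice. All 20 SocialInteraction mice were below the NoInteraction median and 6 were below its lowest mouse. The level fell by 0.21 ± 0.04 on the log2 scale (fold 0.865, adjusted p = 0.000296). Rbm3, its close relative, ran from 56.7 to 83.1 CPM (median 72.3) and from 53.2 to 77.5 CPM (median 62.0). Its difference of -0.16 ± 0.05 had an adjusted p of 0.0585, and of 0.0469 without the Nacc (-0.17). The sets overlapped widely: 7 of 20 SocialInteraction mice were below every NoInteraction mouse and 3 were above the NoInteraction median.

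Rsrp1 ran from 266 to 345 CPM (median 320) and from 260 to 307 CPM (median 292), with all 20 SocialInteraction mice below the NoInteraction median. It fell by 0.13 ± 0.02 (fold 0.912, adjusted p = 0.000162). The lowest NoInteraction value belonged to 1 mouse that lay apart from the rest of its group.

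By region, the share of genes called was highest in the cortex, 7.4% for mPFC and 4.15% for ACC, followed by DMT (1.6%), BLA (1.49%), vHipp (1.21%) and Nacc (0.0%). Of the 10 genes, 9 passed in the DMT, 7 in the mPFC, 6 each in ACC and BLA, and 5 in the vHipp, which is 33 of 60 estimates over the 6 regions, against 2.64% of all gene tests. Hspa5, Hsph1, Hspb1, Cirbp and Rsrp1 passed in all 5 of these regions. Hspa8 passed in 4 and had an adjusted p of 0.0558 in the vHipp. Rbm3 passed in the mPFC alone (-0.18 ± 0.06, adjusted p = 0.0479), with values of -0.11 to -0.20 in the other 4 regions besides the Nacc.

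Among the regions, Hspb1 had its largest estimate in the vHipp, where it ran from 1.60 to 3.96 CPM (median 2.08) and from 2.47 to 8.45 CPM (median 3.53), with all 20 SocialInteraction mice above the NoInteraction median (0.80 ± 0.11, adjusted p = 4.72e-05). In the DMT, its region of highest level, the difference was 0.51 ± 0.11 (adjusted p = 0.00603). Cirbp was fitted at -0.26 ± 0.05 in the ACC (adjusted p = 0.00122). In the mPFC it ran from 51.1 to 73.0 CPM (median 62.3) against 41.1 to 66.8 CPM (median 52.5), where 8 of 20 SocialInteraction mice were below every NoInteraction mouse (-0.25 ± 0.05, adjusted p = 0.000724). Rsrp1 in the mPFC ran from 269 to 360 CPM (median 330) and from 250 to 324 CPM (median 287), with all 20 below the NoInteraction median (-0.16 ± 0.03). For these 3 genes the ranges of the sets overlapped in every region, and no test called their response different between regions.

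In the Nacc, 0 of the 10 genes passed in edgeR with all 41 libraries, where 0.0% of genes were called. Without the 12 mismatched libraries, where 0.0256% of genes were called, again none passed, but the estimates moved toward those of the other regions. Hsph1 went from 0.08 ± 0.06 to 0.21 ± 0.05, Hspa5 from 0.18 ± 0.09 to 0.35 ± 0.09, Hspb1 from 0.28 ± 0.14 to 0.53 ± 0.13 and Cirbp from -0.10 ± 0.06 to -0.24 ± 0.05 (adjusted p of Cirbp 0.0686). In those 29 libraries Cirbp ran from 56.4 to 80.4 CPM (median 67.1) in 15 NoInteraction mice and from 46.3 to 66.0 CPM (median 56.9) in 14 SocialInteraction mice, all 14 below the NoInteraction median. DESeq2 also called 0 of the 10 genes in the Nacc with all libraries.

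**Figure D2:**
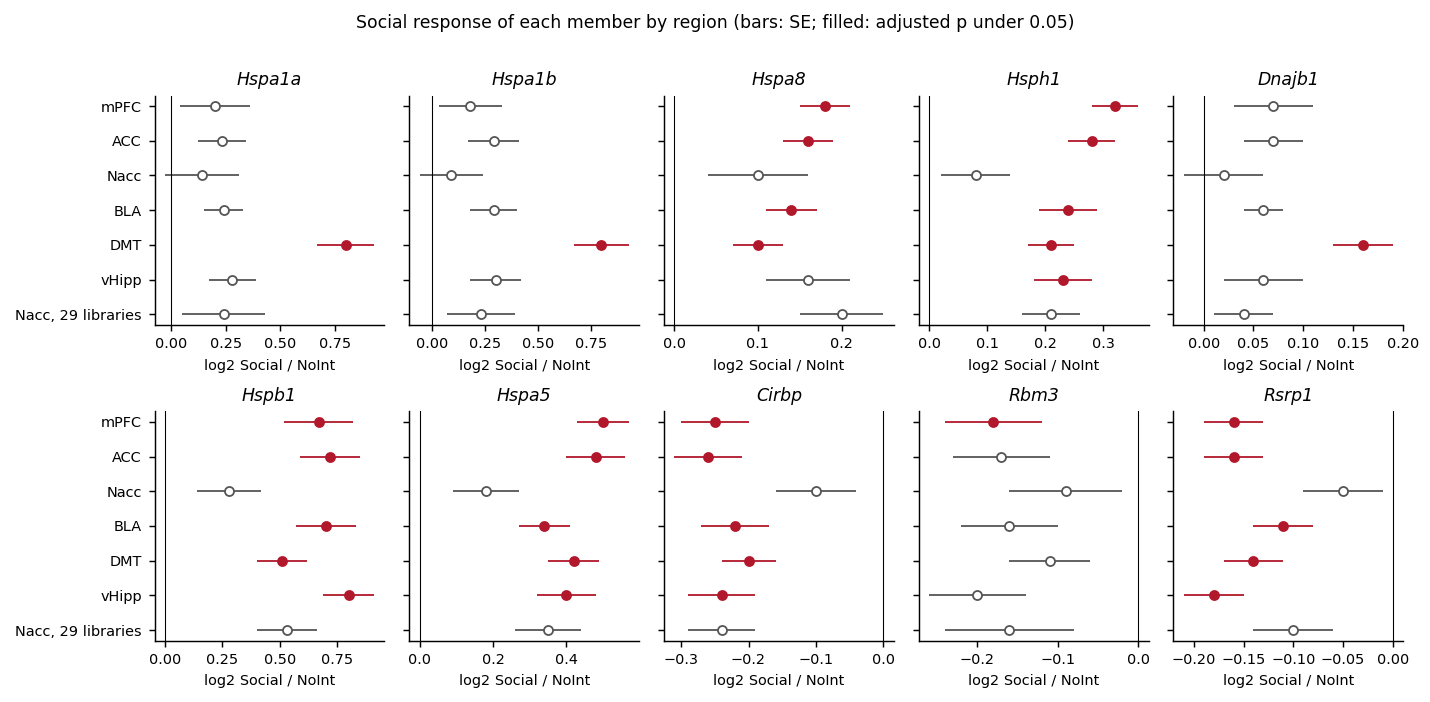
Each panel is 1 gene; the x axis is the log2 difference between SocialInteraction and NoInteraction mice, points are estimates from edgeR with bars of 1 SE, and filled points have an adjusted p under 0.05. Hspa1a and Hspa1b stand at 0.80 in the DMT and at 0.30 or less elsewhere, and the Nacc estimates lie nearer to 0 with all libraries than with the 29 remaining ones (Nacc, 29 libraries) for all 10 genes.

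The inducible Hsp70 genes differed by region. In the DMT, Hspa1a ran from 2.29 to 4.92 CPM (median 3.46) in NoInteraction and from 2.52 to 10.4 CPM (median 5.85) in SocialInteraction mice, and 15 of 20 lay above every NoInteraction mouse. Its difference was 0.80 ± 0.13 (1.75-fold, adjusted p = 0.000375). Hspa1b ran from 3.54 to 8.37 CPM (median 5.32) and from 5.04 to 20.7 CPM (median 8.70), with 11 of 20 above every NoInteraction mouse (0.80 ± 0.13, 1.74-fold, adjusted p = 0.000832). With both copies counted as 1 gene the difference in the DMT was 0.80 ± 0.12 (adjusted p = 0.000376), and over the summed regions 0.28 ± 0.09 (adjusted p = 0.0507).

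Outside the DMT neither copy passed. Hspa1a was fitted between 0.14 and 0.28 and Hspa1b between 0.09 and 0.30, with adjusted p from 0.154 upward. In the vHipp, where both were highest, Hspa1a ran from 7.16 to 16 CPM (median 10.6) and from 7.22 to 19.0 CPM (median 13.1), a difference of 0.28 ± 0.11 (adjusted p = 0.224), and with both copies counted as 1 gene it was 0.29 ± 0.11 (adjusted p = 0.22). A test of the difference between regions, added after these values were seen and run over the 5 regions without the Nacc with mouse as a block, gave a larger response in the DMT than in the other 4 by 0.54 ± 0.09 for Hspa1a (adjusted p = 2.69e-05) and 0.52 ± 0.08 for Hspa1b (adjusted p = 2.45e-05). In that test 0.145% of genes were called for the DMT, and the other 8 genes were not.

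**Figure D3:**
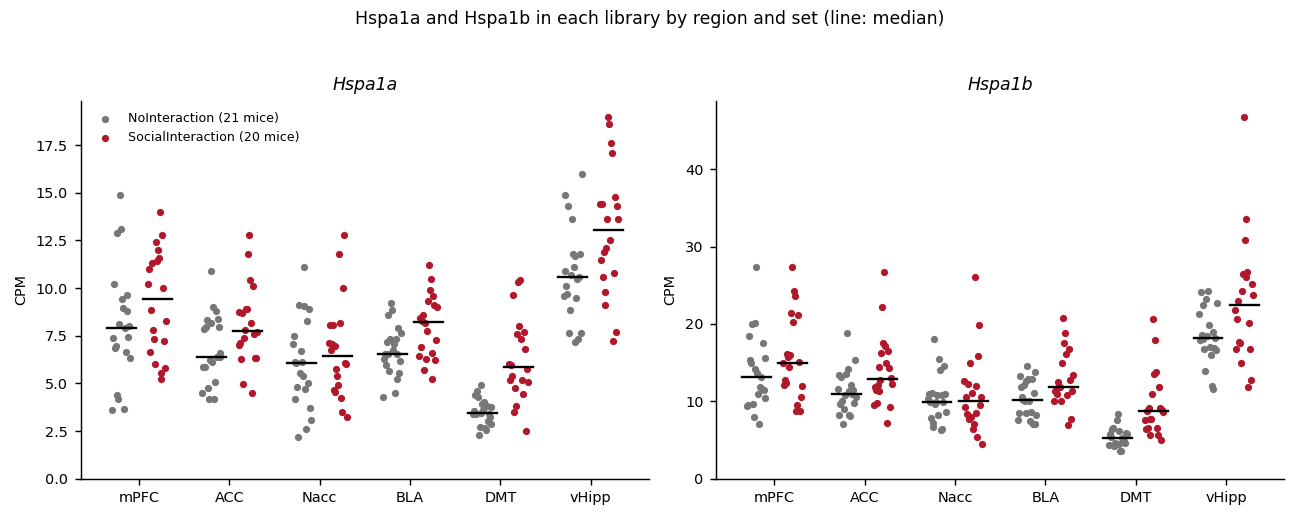
The y axis is CPM in each library (starting at 0), the x axis the region, grey points are the 21 NoInteraction and red points the 20 SocialInteraction mice, and lines are medians. In the DMT the medians are 3.46 and 5.85 CPM for Hspa1a and 5.32 and 8.70 CPM for Hspa1b, while in the vHipp, the region with the highest levels, the sets overlap over most of their range.

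A test for any difference in response among the 5 regions called 0.656% of genes, among them Hspa1a (adjusted p = 0.000503), Hspa1b (0.000326) and Hspa5 (0.0391). For Hspa5 the response was fitted 0.08 ± 0.03 above the other 4 regions in the mPFC and -0.10 ± 0.03 in the BLA, and neither single region passed (adjusted p = 0.248 and 0.193). Dnajb1 also passed in the DMT and in no other region: it ran from 37.2 to 45.2 CPM (median 41.1) and from 38.5 to 57.5 CPM (median 45.1), a difference of 0.16 ± 0.03 (adjusted p = 0.00766). Its excess over the other regions, 0.09 ± 0.03, did not pass (adjusted p = 0.486).

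Choroid plexus markers varied widely between DMT punches and between BLA punches, and their part in the results of these regions was not tested. In the DMT their summed level ran from 5.02 to 1090 CPM (median 30.0) in NoInteraction and from 6.35 to 1420 CPM (median 73.4) in SocialInteraction libraries. The BLA had higher medians, with 27.2 to 5850 CPM (median 2380) in NoInteraction and 23.6 to 5300 CPM (median 3020) in SocialInteraction libraries. In each of these regions 5 of 5 markers were fitted above 0 and none was called. DMT depth was 23066838 to 34211857 counts in NoInteraction and 23304970 to 38210938 in SocialInteraction libraries.

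Markers of 9 cell types were compared over the summed regions, where 8.55% of all genes were called (4.71% higher and 3.84% lower). Of the endothelial list, 1 of 8 genes (Ly6c1, 0.28 ± 0.05, adjusted p = 0.000184) was higher, and the summed level ran from 207 to 233 CPM and from 198 to 234 CPM. The mural list had 1 of 6 lower (Vtn, -0.12), the microglial list 1 of 5 lower (P2ry12, -0.11) and the astrocyte list 1 of 5 higher (Aldh1l1, 0.08). None of the 5 markers each of oligodendrocytes, choroid plexus, meningeal fibroblasts, red cells and neurons was called. The choroid plexus markers were all fitted above 0 (median 0.21, summed level 16.4 to 927 CPM, median 415, against 18.6 to 920 CPM, median 574) and the meningeal fibroblast markers all below 0 (median -0.16, 25.4 to 67.7 CPM against 28.7 to 51.3 CPM). Whether these had a part in the response of the 10 genes was not tested.

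Chaperones outside the 10 genes were compared in the same way, where 4.71% of all genes were called higher and 3.84% lower. Of 30 further heat shock and co-chaperone genes tested over the summed regions, 16 were higher and 0 lower (median log2 difference 0.07 against 0.00 for all genes, 26 fitted above 0), with Dnaja1 (an Hsp40, 0.10 ± 0.01), Hspa4 (an Hsp110 relative, 0.09 ± 0.01) and St13 (an Hsp70 cofactor, 0.07 ± 0.01) having the smallest p. Of 20 genes of endoplasmic reticulum chaperones and the unfolded protein response, 16 were higher and 0 lower (median 0.16), led by Dnajb11 (a BiP cofactor, 0.18 ± 0.03), Manf (a secreted stress-induced factor, 0.26 ± 0.04) and Sdf2l1 (another BiP partner, 0.50 ± 0.09). Of 24 SR protein and splicing kinase genes, 2 were higher (Srsf3 and Tra2a), 1 was lower (Luc7l2) and the median was -0.01.

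Genes of neuronal activity, stress hormone and clock were compared in the same way, with the same shares called over all genes. Of 8 immediate early genes only Fosb passed (0.52 ± 0.10, adjusted p = 0.00148), while Fos (0.19 ± 0.27), Arc (0.23 ± 0.21) and Egr1 (0.11 ± 0.11) had adjusted p of 0.571 to 0.761. Of 7 glucocorticoid-induced genes 4 were higher (median 0.27), with Cdkn1a (0.33 ± 0.07), Fkbp5 (0.27 ± 0.07) and Sult1a1 (0.57 ± 0.14) having the smallest p. Of 11 clock genes tested, Per2 (0.28 ± 0.06) and Per3 (0.14 ± 0.04) were higher and Nr1d1 (-0.12 ± 0.03) was lower, and Per1 was at 0.00 ± 0.04 (adjusted p = 0.968). The time of day at which each mouse was killed was not used here, and whether hour of day had a part in the Cirbp and Rbm3 values was not tested.

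Within single histories the direction over the summed regions was the same for every gene: the 7 chaperone genes were fitted above 0 in 21 of 21 estimates and Cirbp, Rbm3 and Rsrp1 below 0 in 9 of 9. In ELA_SAFit2 mice, 6 of the 10 passed, against 1.61% of genes: Hspb1 (0.74 ± 0.16), Hspa5 (0.51 ± 0.11), Hsph1 (0.30 ± 0.06), Hspa8 (0.19 ± 0.04), Rsrp1 (-0.20 ± 0.04) and Cirbp (-0.26 ± 0.06). In Ctrl_Veh mice (0.0288% of genes called) and ELA_Veh mice (0.023%) edgeR called 0 of 10, with 5 and 6 at an unadjusted p under 0.05. For these histories the share of all genes at that unadjusted level was not counted. Hspb1 was fitted at 0.37 ± 0.17 in Ctrl_Veh and 0.67 ± 0.16 in ELA_Veh, and Hsph1 at 0.20 ± 0.06 and 0.19 ± 0.06. The difference in response itself was tested over the 6 regions for ELA_Veh against Ctrl_Veh and for ELA_SAFit2 against ELA_Veh. None of 120 estimates for the 10 genes passed (smallest adjusted p = 0.446, 0.0116% of gene tests called). Unadjusted p fell under 0.05 in 5 of them (4.17%, against 4.38% of all gene tests). The 120 estimates ran from -0.39 to 1.0 on the log2 scale, so equal responses are not shown. The response of ELA_SAFit2 mice was not tested against that of Ctrl_Veh mice.

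The histories themselves were then compared: ELA_Veh with Ctrl_Veh, ELA_SAFit2 with ELA_Veh and ELA_SAFit2 with Ctrl_Veh, 3 comparisons that share groups. Over the 6 regions none of 180 estimates for the 10 genes passed in the NoInteraction mice (0.000702% of gene tests called; smallest adjusted p = 0.359) or in the SocialInteraction mice (0.000351%; 0.453), and with both sets averaged none of 180 did (0.00421%; 0.735). Unadjusted p fell under 0.05 in 7, 7 and 1 of them, and DESeq2 also called 0. These are 3.89%, 3.89% and 0.556%, against 4.25%, 4.5% and 4.73% of all gene tests. In the Nacc without the mismatched libraries none of the 10 genes was called in any of these comparisons either (smallest adjusted p = 0.854). Among NoInteraction mice, Hsph1 had a median of 308 CPM (288 to 329) in Ctrl_Veh, 302 CPM (292 to 336) in ELA_Veh and 290 CPM (275 to 358) in ELA_SAFit2. Cirbp had medians of 65.2 CPM (58.9 to 67.3), 62.3 CPM (53.1 to 70.9) and 66.6 CPM (60.3 to 71.7). The 3 ranges overlapped for both genes. In the SocialInteraction mice Hspa5 had medians of 232 CPM (224 to 326), 259 CPM (228 to 372) and 278 CPM (226 to 347), which overlapped as well. A p that misses the threshold does not show that the histories had equal levels.

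Each region was compared with the mean of the other 5 in all libraries, where 76.9% of gene tests were called. Of 60 estimates for the 10 genes 48 passed, and 50 with mouse number as a block. Within the Hsp70 family, Hspa1a and Hspa1b were highest in the vHipp (medians 11.7 and 19.4 CPM) and lowest in the DMT (4.24 and 6.37 CPM), and both ends differed from their neighbours in the order. Hspa8 was highest in the DMT (1420 CPM) and lowest in the Nacc (1080 CPM), but the DMT did not differ from the ACC (1370 CPM) beyond the spread. Hspa5 was highest in the BLA (256 CPM), which did not differ from the DMT, and lowest in the vHipp (182 CPM).

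Hspb1 was set apart in the DMT, where its level ran from 4.10 to 15.7 CPM (median 7.28) against medians of 2.50 to 3.77 CPM elsewhere, a difference of 1.25 ± 0.07 on the log2 scale from the other regions (2.38-fold). Dnajb1 was highest in the mPFC (55.5 CPM), then the ACC (48.1 CPM), and lowest in the vHipp (34.8 CPM), each differing from its neighbour. Hsph1 was highest in the ACC (356 CPM) and lowest in the BLA (296 CPM), which did not differ from the vHipp (303 CPM).

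Cirbp ran from a median of 55.9 CPM in the ACC to 63.7 CPM in the DMT. Its highest regions, the DMT, BLA and Nacc, did not differ from neighbour to neighbour. The Nacc (62.0 CPM) differed from the vHipp (59.3 CPM, adjusted p = 0.0396), but not without the mismatched libraries (adjusted p = 0.0669). Rbm3 stood out in the vHipp (79.1 CPM, 0.31 ± 0.03 above the other regions), and the remaining 5 regions, at 63.9 to 70.1 CPM, did not differ from neighbour to neighbour. The ends of these 5 did differ without the mismatched libraries, the mPFC being 0.11 ± 0.05 above the Nacc (edgeR adjusted p = 0.0254). Rsrp1 ran from 282 CPM in the vHipp to 325 CPM in the Nacc. Without the mismatched libraries Rsrp1 in the Nacc was still above the mPFC, its neighbour in the order (adjusted p = 0.0239), and Hspa8 in the Nacc below the BLA (adjusted p = 0.00354). Per kilobase of exon, the median level over all libraries was 299 CPM for Hspa8, 90.3 for Rsrp1, 53.1 for Hspa5, 44.9 for Hsph1, 23.1 for Cirbp, 14.3 for Rbm3, 13.3 for Dnajb1, 4.21 for Hspa1b, 3.27 for Hspb1 and 2.48 for Hspa1a.

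**Figure D4:**
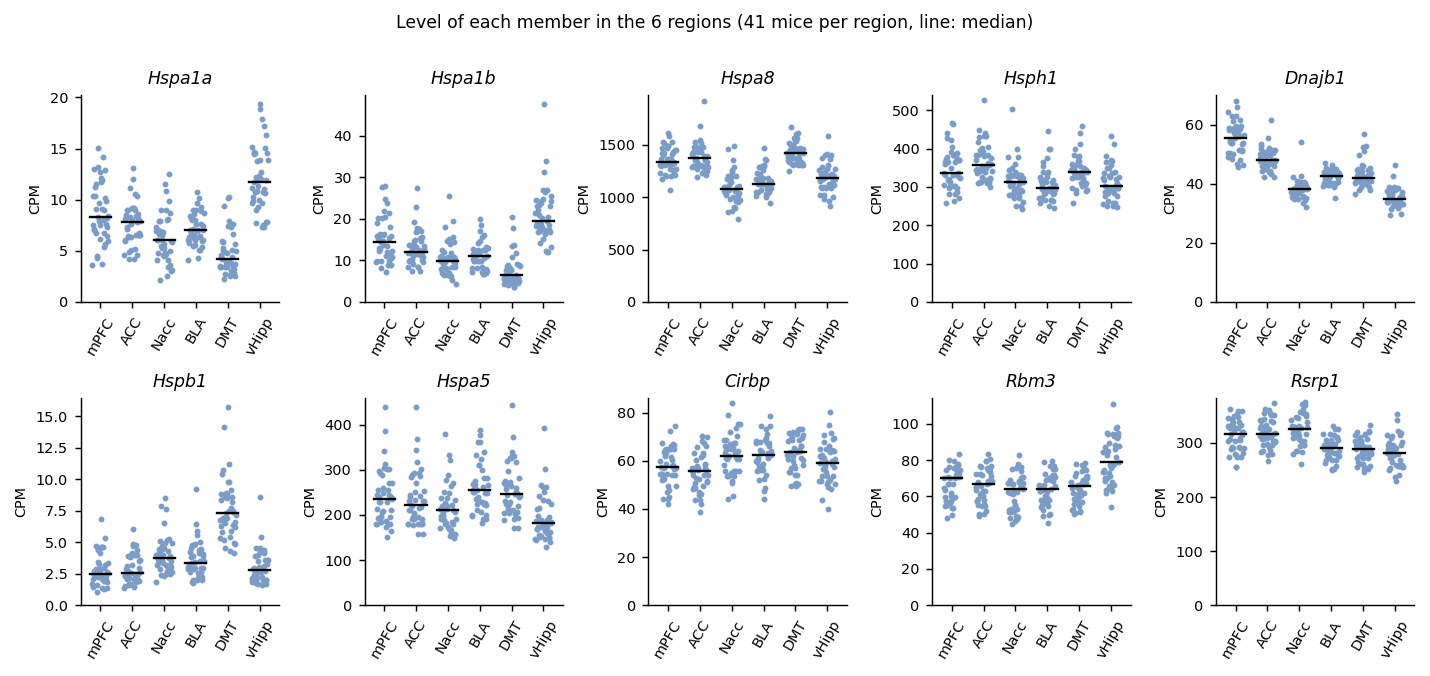
Each point is 1 library, with 41 mice in each region; the y axis is CPM scaled over all libraries and starts at 0, the x axis the region, and lines are medians. Hspb1 is highest in the DMT (median 7.28 CPM), Hspa1a and Hspa1b in the vHipp (11.7 and 19.4 CPM) and Dnajb1 in the mPFC (55.5 CPM), while the Cirbp medians lie between 55.9 and 63.7 CPM.

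The level of a gene in a mouse carried over from region to region. With values centred within history and set and the Nacc left out, the mean correlation between 2 regions across the 41 mice was 0.895 for Hspa5, 0.885 for Rbm3, 0.709 for Hspa1b and 0.680 for Cirbp, and was lowest for Dnajb1 (0.372) and Hspa8 (0.436); the median over 15173 genes was 0.12. These are descriptions, since the regions share the mouse and its handling.

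Across mice, and within history and set, Cirbp and Rbm3 were low where Hsph1 was high. For 8 pairs of the 10 genes, the log2 CPM averaged over the regions was correlated over 41 mice, with permutation p adjusted over the 8. Cirbp and Hsph1 had r = -0.76 (rho = -0.76) and Rbm3 and Hsph1 had r = -0.77 (rho = -0.80), each with a permutation p of 1e-05, the smallest that the permutations can give (adjusted p = 1.33e-05 for r). Without the 2 mice farthest from the median these were -0.75 and -0.76. Within the NoInteraction mice alone they were -0.70 and -0.63, and within the SocialInteraction mice -0.79 and -0.86. Because mice with neighbouring numbers resembled each other, these p treat mice as more independent than they may be. With differences between runs of 8 numbers removed and mice shuffled within runs, an alternative added after seeing the data, both were -0.69 (adjusted permutation p = 8e-05 and 0.000133).

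The other chaperone genes are given as a description, with no test. The mean correlation of Cirbp over the 6 regions was -0.71 with Hsph1, -0.60 with Hspa8 and Hspa5, -0.48 with Hspa1b, -0.41 with Hspb1 (-0.68 to -0.08 by region), -0.38 with Dnajb1 and -0.33 with Hspa1a (-0.58 to 0.04). For Rbm3 it ran from -0.65 with Hsph1 to -0.31 with Dnajb1 (-0.57 to -0.09).

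**Figure D5:**
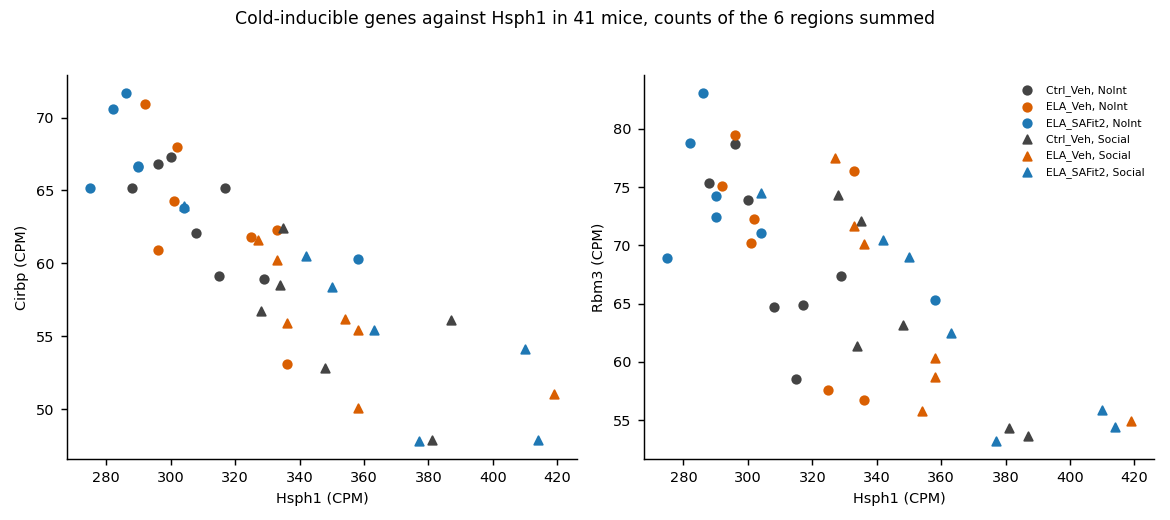
Each point is 1 mouse; the x axis is Hsph1 and the y axis Cirbp (left) or Rbm3 (right), in CPM from the summed counts of 6 regions, with circles for NoInteraction, triangles for SocialInteraction and colours for history. Mice with high Hsph1 have low Cirbp and Rbm3 in both sets (centred r = -0.76 and -0.77), and the triangles lie toward high Hsph1.

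Cirbp and Rbm3 correlated positively (r = 0.77, rho = 0.74), as did Hspa1a and Hspa1b (0.81 and 0.81), Hsph1 and Hspa8 (0.83 and 0.81) and Hsph1 and Hspa5 (0.63 and 0.52), with adjusted permutation p of 0.000733 or less. With runs removed these were 0.48, 0.75, 0.71 and 0.43, the last no longer passing (adjusted permutation p = 0.063). Cirbp and Rsrp1 (r = 0.53, rho = 0.46) had adjusted permutation p of 0.000389 and 0.00355, but with runs removed r was 0.38 (adjusted permutation p = 0.0907). Hsph1 and Dnajb1 had r = 0.47 (adjusted permutation p = 0.00208) and rho = 0.31 (0.051), and with runs removed r was 0.06 (adjusted permutation p = 0.8). By the mean over the 6 regions of the centred correlation, the gene most like Hspa5 was Pdia6 (0.93), most like Hspa8 was Ahsa1 (0.86), most like Hsph1 was Hspa8 (0.80), most like Hspb1 was Hspa5 (0.76), and most like Rsrp1 was Hnrnpdl (0.64).

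Mice also resembled those with neighbouring numbers. A joint test of differences between runs of 8 mouse numbers, within set, called 0.339% of genes over the summed regions, and of the 10 genes it called Rbm3 (F = 7.15, adjusted p = 0.0183). In the single regions it called none of the 10, so that 1 of 70 tests passed, against 0.0587% over all genes. At an unadjusted p under 0.05 it was 38 of 70 (54.3%), against 6.73% over all genes. DESeq2 called 31 of 70, and 1896 tests over all genes, where edgeR called 66 of 112358. The mean of Rbm3 in a run went from 61.3 to 77.2 CPM (median 73.4) over 7 NoInteraction runs and from 55.6 to 73.0 CPM (median 61.3) over 7 SocialInteraction runs, with 4 of the latter below all of the former. Cirbp and Dnajb1 had adjusted p of 0.0909 and Hspa5 of 0.113. The run mean of Hspa5 went from 181 to 239 CPM (median 200) over the NoInteraction runs. Over the SocialInteraction runs it went from 236 to 339 CPM (median 251), the highest being the run of mice 57, 59, 61 and 63. The labels do not say what a number stands for, and because each run belongs to 1 set, the social encounter and anything that runs of the same set shared cannot be told apart. With the run as the unit (7 against 7, counts summed within runs), 6 of the 10 genes passed, against 2.13% of genes: Rsrp1, Hsph1, Hspb1, Hspa8, Hspa5 and Cirbp (adjusted p = 0.0136 to 0.0258). The runs held unequal numbers of mice, and 1 SocialInteraction run was a single animal (mouse 79).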

How the data were processed

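RNA was sequenced as paired reads of 100 bases from poly-A selected, stranded libraries of punches from 41 mice and 6 regions. The authors deposited 1 table of estimated counts per gene, named for salmon, and 12.1% of its values were not whole. The submitters' processing notes also name STAR, DESeq2 and GRCm39 (mm39), with no versions or roles given. The deposited values were rounded to integers. In each region the protein-coding genes detected in at least 6 libraries, with counts adding up to 100 or more, were tested. Gene types came from GENCODE M21 for 52073 genes and from RefSeq symbols for 978. Transcript and promoter sequences came from a GRCm38 reference, and no coordinates were moved between builds.

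Differences were tested with edgeR 4.0.16 (quasi-likelihood F test, TMM scaling) in R 4.3.3, in 1 fit per region over the 6 groups of history and set, with p-values adjusted by Benjamini-Hochberg over all genes tested. The same fit was made on 1 total per mouse, adding its 6 libraries. The tests are two-sided. The standard error given is the absolute log2 difference divided by the square root of its F, so it comes from the same test as the p-value. CPM are counts scaled to a common library total with TMM factors. Regions were compared in 1 fit over all libraries. Libraries were matched to mice by 60 genes whose level differs between individuals. Correlations used log2(CPM + 0.5) averaged over regions and centred within history and set, with 100000 permutations. As an alternative, differences between runs of 8 mouse numbers were removed as well and mice were shuffled within runs. DESeq2 1.42.0, its size factors in edgeR, no filter on low counts, all gene types, leaving out each mouse and the other alternatives are described in the last part. On simulated counts the script recovered 96% of 200 genes changed by 0.5 (log2) in the summed fit and 90.5% in the mPFC, with 11 and 10 false calls. The simulated mice were independent and all genes had the same spread, so these shares need not hold for the 10 genes. Python 3.11.15 with pandas 2.3.3, NumPy 2.4.6, SciPy 1.17.1 and Matplotlib 3.10.9 made the other values.

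The 10 genes, the lists and the tests were chosen with earlier results of these data known. All 10 genes were tested in every comparison and named in the main one; in the others some are given by counts. Also named are at most 3 genes of each list, those with the smallest p among the called, some of the most similar genes by mean correlation over the 6 regions, and Fos, Arc, Egr1 and Per1. The replicates are mice, and cage or litter was not used here.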

Additional observations from a re-analysis of the deposited data

Results flagged for a closer look

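In 5 of 60 combinations of gene and group, over the summed regions, 1 mouse lay apart from the others by Dixon's criterion, which chance meets in about 1 of 20 groups. Hspa5 was at 326 CPM in a Ctrl_Veh SocialInteraction mouse (mouse 57), where the next was at 250 CPM. Hsph1 was at 358 CPM in an ELA_SAFit2 NoInteraction mouse (mouse 7) and at 419 CPM in an ELA_Veh SocialInteraction mouse (mouse 59). Hspb1 was at 5.09 CPM in an ELA_Veh NoInteraction mouse (mouse 43). Rsrp1 was at 266 CPM, the lowest of its group, in an ELA_Veh NoInteraction mouse (mouse 13).

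The response to the social encounter differed between regions for 3 genes. For Hspa1a and Hspa1b it was larger in the DMT than in the other 4 regions by 0.54 and 0.52 on the log2 scale. The test for any difference among the 5 regions gave edgeR adjusted p of 0.000503 for Hspa1a, 0.000326 for Hspa1b and 0.0391 for Hspa5.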

How the results depend on the processing

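Of the values for single genes, 961 kept their direction and side of the threshold, 50 newly passed it, 11 no longer passed it and none changed sign. Over the summed regions DESeq2 called all 10 genes (6 in edgeR), and over all genes 1885 (1487 of 17382 in edgeR). For the runs of mouse numbers it called 31 of 70 gene and region combinations (1 in edgeR), and over all genes 1896 (66 of 112358 in edgeR). Leaving out each mouse in turn gave 6 to 10 genes, with 10 without mouse 7 or mouse 43. Hspb1, Hspa5, Hsph1, Hspa8, Cirbp and Rsrp1 passed in 41 of 41 of these fits. Of the other 4, Hspa1a passed in 11, Dnajb1 in 13, Rbm3 in 10 and Hspa1b in 4 of the fits, the lowest adjusted p being 0.0202 for Hspa1a without mouse 41, 0.0301 for Dnajb1 without mouse 13, 0.0305 for Rbm3 without mouse 93 and 0.0229 for Hspa1b without mouse 91. With mouse number as a replicate block, 50 of 60 region estimates passed (48 without it). The calls lost were Hspa8 in the DMT (adjusted p = 0.0559 with no filter on low counts, 0.0518 with all gene types), Rbm3 in the mPFC (0.0556 and 0.0618), the Nacc level of Hspb1 without mismatched libraries (0.065), the DMT level of Rbm3 with no filter (0.0533), and the correlations of Hsph1 with Dnajb1 within NoInteraction mice (r = 0.27, adjusted permutation p = 0.236) and of Cirbp with Rsrp1 within SocialInteraction mice (r = 0.41, adjusted permutation p = 0.0702), each over fewer mice. With runs of mouse numbers removed as well, chosen after seeing the data, 5 of 8 correlations passed in place of 8; those lost were Hsph1 with Dnajb1 and with Hspa5 and Cirbp with Rsrp1. The cause was not tested.

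Counts over all genes moved more. Differences between histories over the 6 regions numbered 2 in NoInteraction mice (45 with DESeq2, 1 with all gene types, 0 with that set alone or with runs as a term), 1 in SocialInteraction mice (77 with DESeq2, 0 with no filter, all gene types or runs as a term) and 12 with both sets (95 with DESeq2, 22 with all gene types, 6 with runs as a term). Differences between runs numbered 66 (1896 with DESeq2), and the social response 1487 (371 with counts summed within runs, an alternative chosen after seeing the data).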
